A study of Mus musculus with 2 samples.

Results

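The platelet-derived growth factor (PDGF) family was followed in single cells of the mouse kidney 14 days after ischemia-reperfusion injury (IRI). Its 4 ligand genes, Pdgfa, Pdgfb, Pdgfc and Pdgfd, and its 2 receptor genes, Pdgfra and Pdgfrb, were taken by symbol from the 32285 genes of the count matrices, and all 6 were found. Left kidneys were clamped for 25 minutes in mice 8 to 10 weeks of age and collected on day 14, and male mice were used for this model. Both groups received 4 injections of tamoxifen at 3 mg per injection, given every other day. The control library is labelled Cre- and came from a littermate without the Cre transgene. Its label does not state which floxed alleles this mouse carried. The other library, called PHDTiEC, came from a mouse with the Cdh5-CreERT2 transgene and floxed alleles of Phd1 (Phd1f/f), Phd2 (Phd2f/f) and Phd3 (Phd3f/f), in which tamoxifen-activated Cre driven by the Cdh5 promoter is meant to delete the 3 oxygen-sensing prolyl hydroxylases in endothelial cells (ECs). The comparison asks which cells carry PDGF ligand and receptor RNA in the injured kidney, and how their levels differ when endothelial oxygen sensing is removed. There was 1 library per genotype, from 1 mouse each, so no test between genotypes was possible and no p-value is given.

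PDGFs are secreted dimers that act on the receptor tyrosine kinases PDGFRα and PDGFRβ. PDGFRα binds the A, B and C chains, whereas PDGFRβ binds mainly the B and D chains. In the kidney, B chains made by endothelial cells recruit pericytes and mesangial cells that carry PDGFRβ, and signaling through both receptors drives the growth of fibroblasts and pericytes in renal fibrosis.

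The ligand genes lie on 4 chromosomes (GRCm38, GENCODE vM21). Pdgfa (ENSMUSG00000025856, chr5:138976014-138997370, minus strand) and Pdgfb (ENSMUSG00000000489, chr15:79995874-80014977, minus strand) encode chains that are cut to their active form inside the cell by furin-like proteases. Pdgfc (ENSMUSG00000028019, chr3:81036416-81214040, plus strand) and Pdgfd (ENSMUSG00000032006, chr9:6168584-6378850, plus strand) encode chains that are secreted in latent form and released by extracellular proteases. The receptor genes are Pdgfra (ENSMUSG00000029231, chr5:75152292-75198215, plus strand) and Pdgfrb (ENSMUSG00000024620, plus strand).

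Because the altered pathway in the mutant mice is the hypoxia response, the promoter windows of the members were searched for the core of the hypoxia response element, ACGTG or GCGTG, on both strands. RefSeq windows on GRCm38.p6, from 250 bases before to 50 bases after a transcript start, were matched for 4 of the 6 genes, with 5 windows in all: Pdgfa with more than 1 window, Pdgfc, Pdgfd and Pdgfra. The core was present in 1 of the 5 windows, one of Pdgfa, against 43.8% of all 32851 windows. The first 150 bases of that window (chr5:138995045-138995194, minus strand, written 5′ to 3′ on the gene's strand) are shown as the only match among the members. Of 7 annotated Pdgfa transcripts, 4 start downstream of this stretch, the nearest of them 8 bases away, and 3 start further upstream and hold it in an intron, and no exon overlaps it. The capitals mark CACGC, the reverse complement of GCGTG.
Pdgfa: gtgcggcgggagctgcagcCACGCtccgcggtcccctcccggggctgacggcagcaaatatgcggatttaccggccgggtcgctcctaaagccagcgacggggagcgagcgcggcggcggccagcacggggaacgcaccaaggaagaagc
A match of these letters describes the sequence only, and a window without them says nothing about any factor.

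Levels are given as CPM, the unique molecular identifiers (UMIs) of a gene summed over the cells of a class and scaled to 1000000 UMIs of that class. The libraries held 136004367 (Cre-) and 146758812 (PHDTiEC) UMIs, and 8548 and 9309 barcodes passed the filters, with a median of 7500 and 7898 UMIs. Clusters were named from marker genes as "X-like", and 27 classes with at least 20 cells in each library were compared. Clusters 5, 14, 21 and 24 kept their numbers: cluster 5 (median 1110 UMIs) was led by Gm26917 and hemoglobin genes, cluster 14 by Igfbp2, Foxd1 and Wt1 with glomerular epithelium markers, cluster 21 by mural and endothelial genes together (Rgs5, Myh11, Cldn5, Sox17), and cluster 24 by cell cycle genes. Cluster 21 was counted with the endothelial-like cells, beside the medullary (mREC-like) and cortical (cREC-like) renal ECs. In all endothelial-like cells the targeted genes did not show lower RNA in the library labelled PHDTiEC: Egln1 (Phd2) was at 67.9 and 192 CPM, Egln2 (Phd1) at 36.7 and 39.7 CPM, and Egln3 (Phd3) at 24.7 and 153 CPM. Counts from the 3′ end of a transcript need not report on the floxed part, so these values do not check the deletion, and the genotype is given below as labelled. The libraries shared 28 barcodes, against 11.7 for barcodes drawn at random. All intervals are exact 95% intervals, Poisson for CPM and binomial for log2 ratios of PHDTiEC over Cre-, and they cover counting error only, not the difference between animals.

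The ligand Pdgfb was high in vessels, but not in vessels alone. With both libraries summed, its level was highest in mREC-like cells at 222 CPM (208–236), followed by cluster 14 at 208 CPM, thin limb or inner medullary collecting duct (IM-CD)-like cells at 201 CPM and injured proximal tubule (PT)-like cells at 201 CPM. The intervals of neighbors in this order overlapped, and the order differed between the libraries. In Cre-, injured PT-like cells (202 CPM, 193–212) and cluster 14 (201 CPM, 186–216) lay above mREC-like cells (180 CPM, 161–201) with overlapping intervals, whereas in PHDTiEC mREC-like cells led at 250.5 CPM (231–271), ahead of thin limb or IM-CD-like cells at 236 CPM (222–251). In the summed order cluster 21 (162 CPM) lay below them without overlap and overlapped in turn with cREC-like cells (144 CPM). Both large macrophage-like classes and PT-like cells followed between 101 and 105 CPM. Of all Pdgfb UMIs, 58.7% (Cre-) and 55.4% (PHDTiEC) came from tubular-like cells, 24.3% and 22.4% from myeloid-like cells, and 7.22% and 9.61% from endothelial-like cells. Tubular-like cells also held 71708247 of 118320351 and 78168778 of 132583769 UMIs of all genes. Their Pdgfb level, 89.0 and 85.6 CPM, lay below that of all cells, 91.9 and 91.0 CPM.

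In mREC-like cells, Pdgfb was at 180 CPM (161–201, 183 cells) in the Cre- library and at 250.5 CPM (231–271, 227 cells) in the library labelled PHDTiEC. The intervals did not overlap, and the log2 ratio was 0.48 (0.28 to 0.67), a 1.39-fold higher level. In cREC-like cells it was at 120.5 CPM (101–143, 131 cells) and 164 CPM (143–188, 214 cells), with a log2 ratio of 0.45 (0.13 to 0.77). In cluster 21 the levels were 164 and 160 CPM, and the interval of the log2 ratio of -0.03 (-0.26 to 0.19) includes 0. Over all endothelial-like cells the levels were 160 and 201 CPM, a log2 ratio of 0.33 (0.20 to 0.46), and 0.50 without cluster 21. The share of mREC-like cells with at least 1 Pdgfb UMI was 61.2% and 76.2%, and among the 162 and 218 cells with at least 2000 UMIs, each thinned to 2000 UMIs, it was 23.5% (17.2–30.7) and 39.4% (32.9–46.3), with 21 and 9 shallower cells left out. T-like cells, which should lack the gene, showed 3.88% and 3.95% after the same thinning (65 and 66 cells left out), with median depths of 3111 and 3234 UMIs against 6881 and 8905 UMIs in mREC-like cells. The thinned share of the cREC-like class was 23.2% (15.3–32.8) and 27.4% (20.6–35.1), with 32 and 57 shallower cells left out. That of cluster 21 was 20.7% (12.7–30.7) and 25.8% (17.4–35.7). The intervals of the libraries overlapped for both, so among the endothelial-like classes they were apart at equal depth for the mREC-like class only. Summed over all endothelial-like cells, Pdgfb was thus higher in the library labelled PHDTiEC, but it stayed within 1.5-fold. Pecam1, the endothelial adhesion molecule CD31, was higher by a like amount, with 599 and 754 CPM in all endothelial-like cells (log2 ratio 0.33, 0.26 to 0.40) and 637 and 830 CPM in mREC-like cells (0.38, 0.28 to 0.49). The whole endothelial list of 8 genes, none of them at 0, was at 4561 and 4766 CPM in all endothelial-like cells and at 4510 and 4672 CPM in mREC-like cells. In mREC-like cells the cREC list was also at 1303 and 2405 CPM and the thick ascending limb (TAL) list at 238 and 42.5 CPM, and the part of these lists in the result was not tested. In mREC-like cells 3 members (Pdgfa, Pdgfb and Pdgfd) reached 50 UMIs and none of them lay past 1.5-fold, against 10.2% of all genes with at least 50 UMIs there.

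Outside the endothelium, Pdgfb differed in both directions. In thin limb or IM-CD-like cells it was at 169 CPM (158–181) in Cre- and 236 CPM (222–251) in PHDTiEC, a log2 ratio of 0.48 (0.35 to 0.62). In cells with distal convoluted tubule and collecting duct markers (DCT- and CD-like), it was lower in the library labelled PHDTiEC, with 85.9 CPM (81.2–90.7, 610 cells) and 52.4 CPM (49.0–55.9, 648 cells), a log2 ratio of -0.71 (-0.84 to -0.59). This class holds more than 1 tubule segment, and clustering at a finer resolution split it into a part rich in Slc12a3, the thiazide-sensitive sodium chloride cotransporter of the DCT, and a part rich in Aqp2, the vasopressin-regulated water channel of the CD. Pdgfb was at 41.3 and 33.2 CPM in the Slc12a3-rich part (log2 ratio -0.32, -0.55 to -0.08) and at 135 and 74.2 CPM in the Aqp2-rich part (-0.87, -1.02 to -0.72). The CD marker list was summed to 1988 and 2661 CPM and the DCT list to 1655 and 1275 CPM in the whole class, so CD markers were higher where Pdgfb was lower, and their part in the result was not tested. When each cell was classed on its own by its markers, the log2 ratio in DCT- and CD-like cells was -0.33. The share of DCT- and CD-like cells with a Pdgfb UMI was 39.3% and 35.2%. After thinning to equal depth it was 10.7% (8.35–13.4) and 7.63% (5.7–9.97), with 2 and 6 shallower cells left out. These intervals overlapped. The thinned shares of thin limb or IM-CD-like cells, 16.8% (12.2–22.3) and 21.6% (16.1–27.9), overlapped as well, with 18 and 10 shallower cells left out.

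Smaller differences of Pdgfb were seen in other classes. TAL-like cells had 56.2 and 45.6 CPM (log2 ratio -0.30, -0.46 to -0.14), which came to -0.02 as a mean over cells. All macrophage-like cells had 107 and 98.8 CPM (-0.11, -0.20 to -0.03), and injured PT-like cells had 202 and 199 CPM (-0.02, -0.12 to 0.08). Fibroblast (FIB)-like cells had 28.8 and 49.4 CPM (0.78, 0.34 to 1.23), but a single cell gave 41.1% of the 56 UMIs in Cre- and 21.6% of the 208 UMIs in PHDTiEC. Summed over all cells these differences canceled, at 91.9 and 91.0 CPM.

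**Figure D1:**
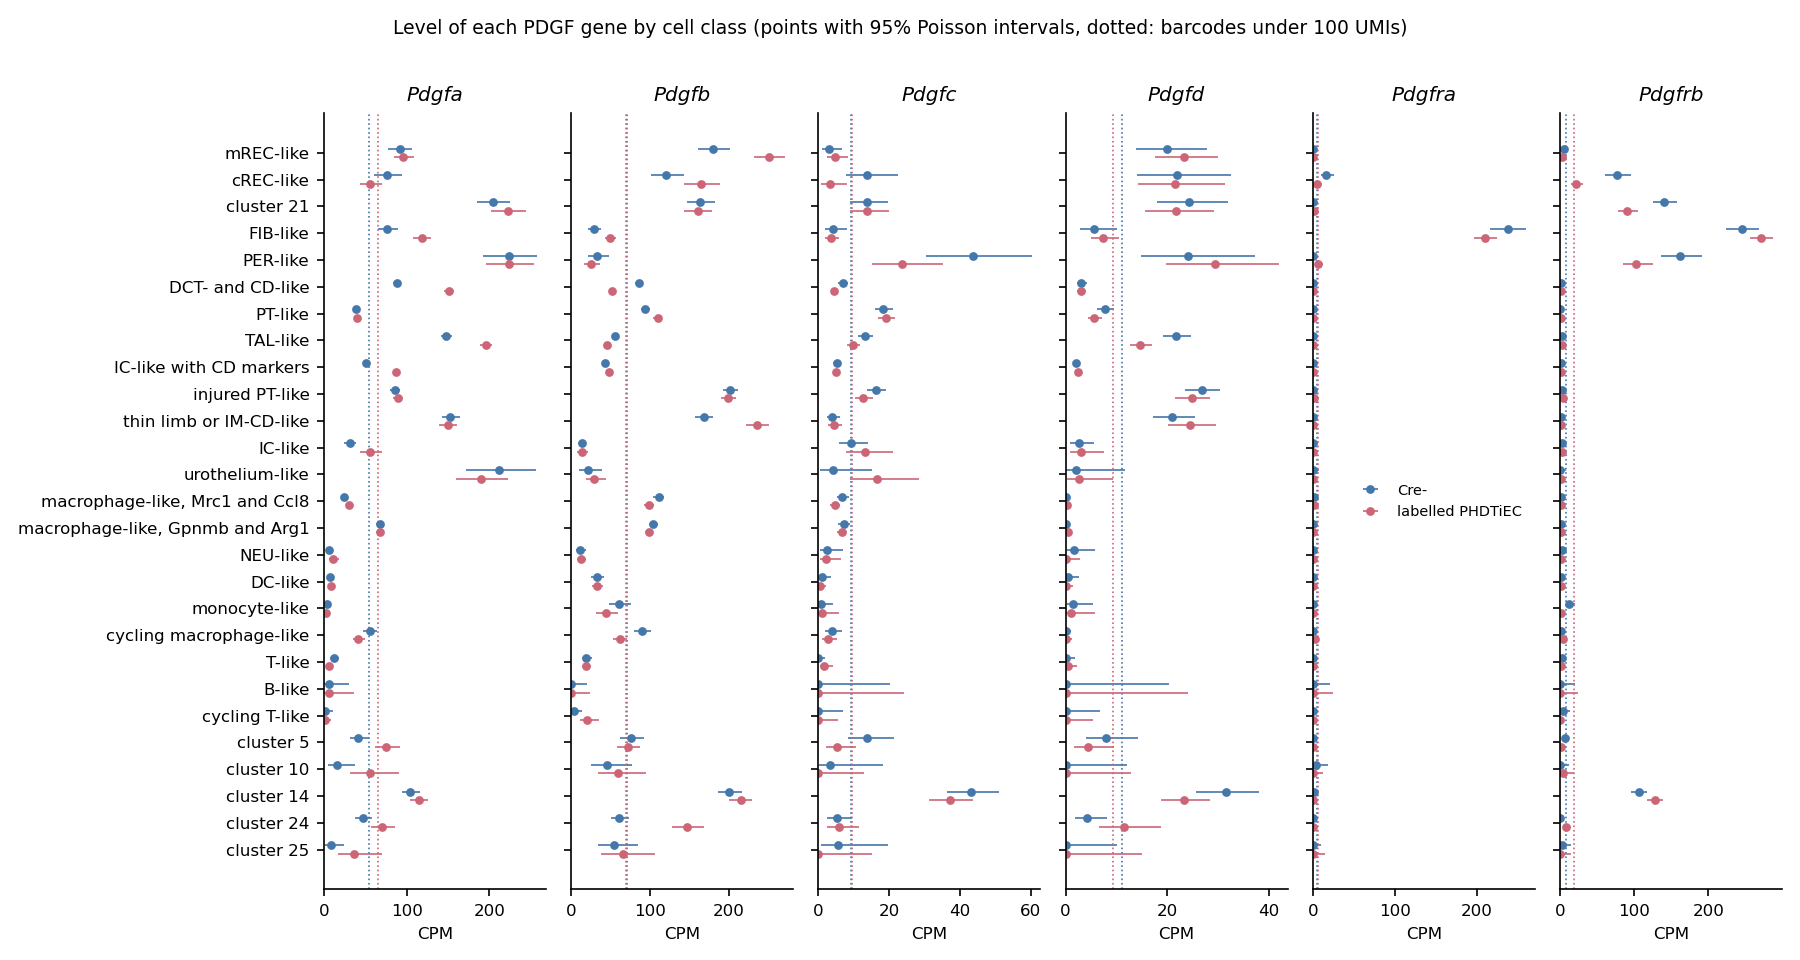
Level of each PDGF gene (CPM, linear axis from 0, its own scale for each gene) in the cell classes of the Cre- library (blue) and the library labelled PHDTiEC (red), with exact Poisson 95% intervals; dotted lines give the level in barcodes under 100 UMIs. Pdgfb is highest in injured PT-like cells in Cre- (202 CPM) and in mREC-like cells in PHDTiEC (250.5 CPM), Pdgfa is highest in PER-like cells (224 and 224 CPM), and Pdgfra stands alone in FIB-like cells (238 and 210.5 CPM).

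Pdgfa, whose A chain acts through PDGFRα only, had its highest levels in contractile and epithelial cells. Pericyte (PER)-like cells (224 CPM), cluster 21 (214 CPM), urothelium-like cells (198 CPM) and TAL-like cells (173 CPM) led the order with overlapping intervals between neighbors, and thin limb or IM-CD-like cells (152 CPM) and DCT- and CD-like cells (122 CPM) followed, each without overlap with the class above. Tubular-like cells gave 68.0% (Cre-) and 70.5% (PHDTiEC) of its UMIs. Their level, 84.3 and 115 CPM, lay above that of all cells, 75.1 and 96.2 CPM. In the leading PER-like class the level was 224 CPM in each library, with a log2 ratio of 0.00 (-0.29 to 0.29). Endothelial-like cells likewise had 135 and 131 CPM, which is a log2 ratio of -0.05 (-0.20 to 0.10).

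In the distal nephron, Pdgfa was higher in the library labelled PHDTiEC. DCT- and CD-like cells had 88.4 CPM (83.7–93.2) and 152 CPM (146–158), a log2 ratio of 0.78 (0.68 to 0.87) or 1.71-fold. The intercalated cells (IC)-like class with CD markers had 51.0 CPM (47.7–54.4, 365 cells) and 87.7 CPM (83.7–91.9, 413 cells), a log2 ratio of 0.78 (0.67 to 0.90). Its median depth was 47924 and 52330 UMIs, against 12434 and 11816 UMIs in the IC-like class without CD markers. Whether its barcodes hold 1 cell or more than 1 cannot be told apart in these data. The smaller IC-like class had 31.3 CPM (24.6–39.3, 179 cells) and 55.9 CPM (44.1–70.0, 111 cells), a log2 ratio of 0.84 (0.36 to 1.32). In each of these classes the CPM intervals of the libraries were apart. After thinning to equal depth, 5.22% (3.17–8.03) and 14.5% (11.3–18.3) of IC-like cells with CD markers carried a Pdgfa UMI, which were also apart. The thinned shares of the smaller IC-like class overlapped, at 5.73% (2.65–10.6) and 6.67% (2.49–13.9), with 22 and 21 shallower cells left out. A single cell gave 10.8% (Cre-) and 13.2% (PHDTiEC) of the Pdgfa UMIs of that smaller class. Unlike Pdgfb, Pdgfa differed alike in both parts of the DCT- and CD-like class, with 122 and 210 CPM in the Slc12a3-rich part (log2 ratio 0.78, 0.66 to 0.89) and 51.2 and 86.2 CPM in the Aqp2-rich part (0.75, 0.57 to 0.94). TAL-like cells showed the same direction, with 148 CPM (141–155) and 196 CPM (189–204), and the log2 ratio was 0.40 (0.32 to 0.49).

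In proximal and thin limb cells the interval of the Pdgfa ratio included 0. PT-like cells had 38.4 and 39.9 CPM (log2 ratio 0.06, -0.14 to 0.25), injured PT-like cells 86.1 and 89.5 CPM (0.06, -0.09 to 0.20), and thin limb or IM-CD-like cells 153 and 150 CPM (-0.03, -0.18 to 0.12). Over all tubular-like cells Pdgfa was at 84.3 CPM (82.2–86.4) and 115 CPM (113–118), a log2 ratio of 0.45 (0.40 to 0.50), and the alternatives of the processing gave 0.39 to 0.51. Among DCT- and CD-like cells thinned to 2000 UMIs, with 2 and 6 shallower cells left out, 13.3% (10.7–16.3) and 22.3% (19.1–25.7) carried a Pdgfa UMI, against 1.84% and 1.15% of T-like cells. The median depth of DCT- and CD-like cells was 18588 and 18016.5 UMIs before thinning. FIB-like cells also had more Pdgfa in the library labelled PHDTiEC, 76.6 CPM (64.8–90.0) and 118 CPM (108–129), a log2 ratio of 0.63 (0.36 to 0.90). Their thinned shares, 13.1% (8.17–19.5) and 15.2% (11.2–19.8) with 10 and 14 shallower cells left out, overlapped. Endothelial and mural genes were also higher there, Pecam1 at 1.54 and 14.95 CPM, Rgs5 at 11.3 and 24.2 CPM and Myh11 at 9.26 and 23.0 CPM. Col1a1 was at 4649 and 4268 CPM. The part of RNA of other cells in the FIB-like Pdgfa value was not tested.

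Counts of members past 1.5-fold were set beside those of all genes with at least 50 UMIs in the class. In DCT- and CD-like cells 1 member was higher (Pdgfa) and 2 were lower (Pdgfb and Pdgfc) of 4, where 7.15% of all genes lay past 1.5-fold. In IC-like cells with CD markers 1 of 4 members was higher, against 6.23% of genes, and in IC-like cells the 1 member that could be counted was higher, against 9.94%. Over all tubular-like cells 1 of 6 was past 1.5-fold, against 5.56%, and this was Pdgfra with 9 UMIs in Cre- and 48 UMIs in PHDTiEC. In FIB-like cells 2 of 4 members were higher (Pdgfa and Pdgfb), against 11.2% of genes. With at most 6 members per class such counts describe the family only.

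**Figure D2:**
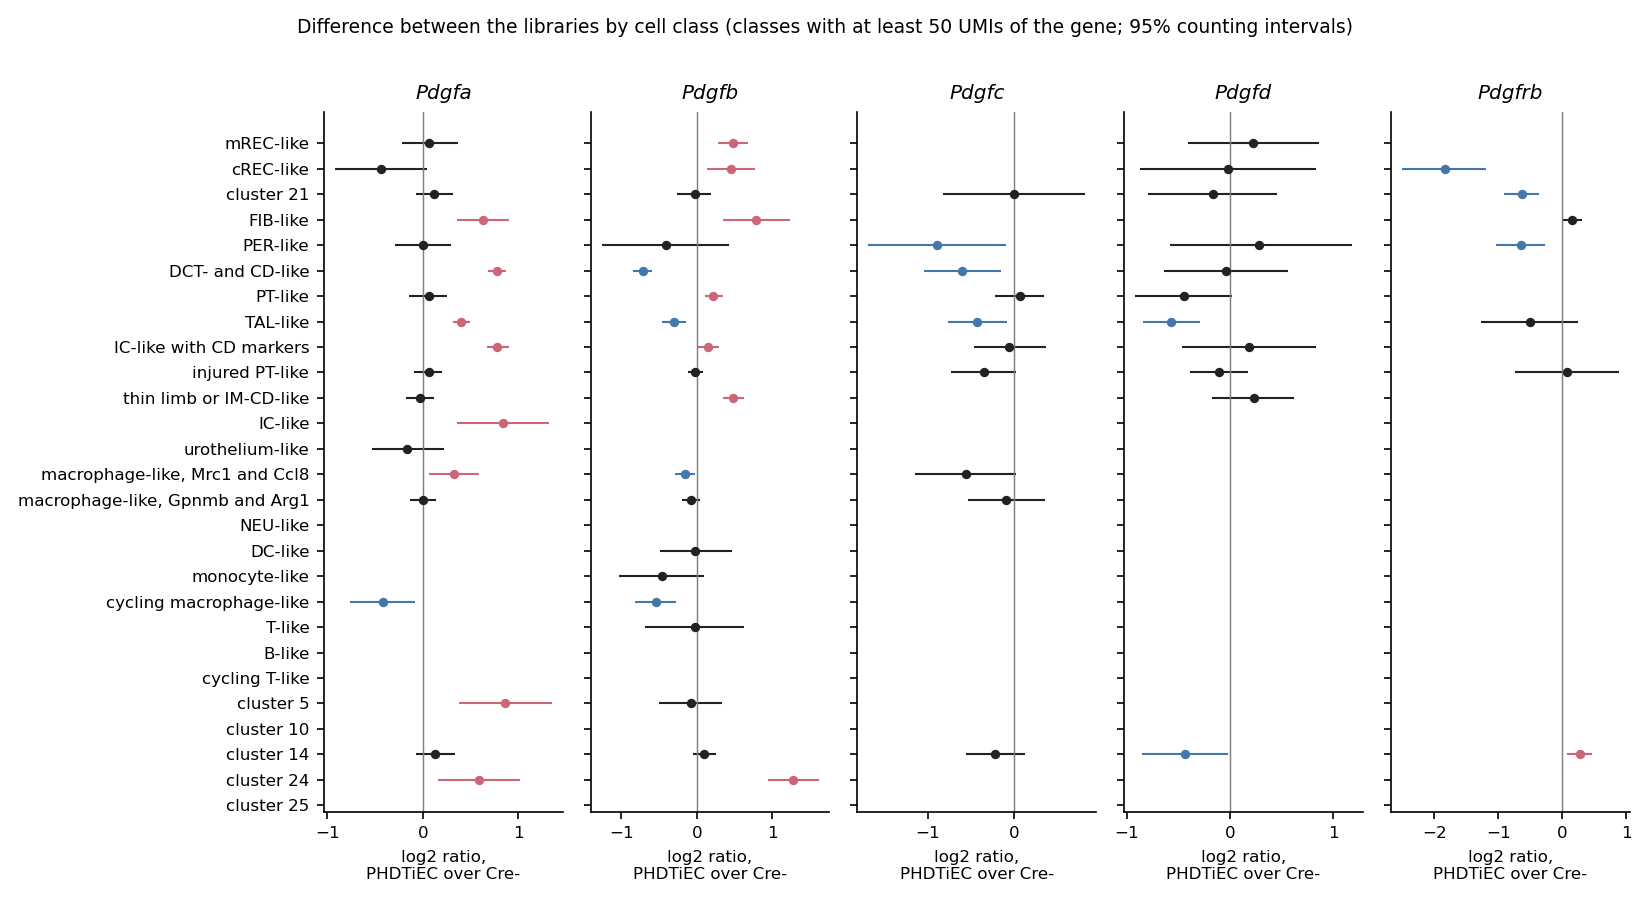
Log2 ratio of CPM, library labelled PHDTiEC over Cre-, for 5 members in each class with at least 50 UMIs of that gene, with exact binomial 95% intervals; red marks intervals above 0, blue intervals below 0 and black those that include 0. Pdgfa is shifted to the right in the distal tubule classes (0.78 in DCT- and CD-like cells), Pdgfb falls on both sides (0.48 in mREC-like, -0.71 in DCT- and CD-like cells), and Pdgfrb lies to the left in PER-like cells, cluster 21 and cREC-like cells.

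Pdgfc and Pdgfd, the ligands secreted in latent form, were sparser, with 1160 and 1120 UMIs of Pdgfc and 1049 and 1014 UMIs of Pdgfd in all. With both libraries summed, Pdgfc was highest in cluster 14 (39.8 CPM) and PER-like cells (32.5 CPM), whose intervals overlapped, and lower in PT-like cells (18.8 CPM) and injured PT-like cells (14.5 CPM). In cluster 14 it was at 43.2 CPM (36.4–50.8) and 37.0 CPM (31.3–43.5), a log2 ratio of -0.22 (-0.56 to 0.12) whose interval includes 0. In PER-like cells it was at 43.5 CPM (36 UMIs) and 23.6 CPM (24 UMIs), a log2 ratio of -0.89 (-1.69 to -0.10). TAL-like cells were lower in the library labelled PHDTiEC, with 13.1 and 9.77 CPM (-0.43, -0.77 to -0.08), as were DCT- and CD-like cells with 6.81 and 4.51 CPM (-0.60, -1.04 to -0.15). PT-like cells, the tubular class with the highest Pdgfc level, had 18.4 and 19.1 CPM (0.06, -0.22 to 0.34).

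Pdgfd, the ligand that acts mainly through PDGFRβ, had a flat order over both libraries. PER-like cells (27.1 CPM), cluster 14 (27.01 CPM), injured PT-like cells (25.8 CPM), cluster 21 (23.01 CPM), thin limb or IM-CD-like cells (22.7 CPM), mREC-like cells (21.9 CPM), cREC-like cells (21.7 CPM) and TAL-like cells (18.1 CPM) all overlapped with their neighbors. The next class, cluster 24, was at 7.23 CPM and did not. In PER-like cells Pdgfd was at 24.2 CPM (20 UMIs) and 29.4 CPM (30 UMIs), and the interval of the log2 ratio of 0.28 (-0.58 to 1.18) includes 0. In endothelial-like cells, where Pdgfb was higher in the library labelled PHDTiEC, Pdgfd was at 22.2 CPM (18.3–26.8) and 22.3 CPM (18.7–26.5), a log2 ratio of 0.01 (-0.37 to 0.39). TAL-like cells had less of it in that library, with 21.8 CPM (19.3–24.6) and 14.7 CPM (12.7–16.9), a log2 ratio of -0.57 (-0.84 to -0.29). All macrophage-like cells held 3 and 10 Pdgfd UMIs, so this ligand was near 0 in cells that gave a large part of the Pdgfb UMIs.

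**Figure D3:**
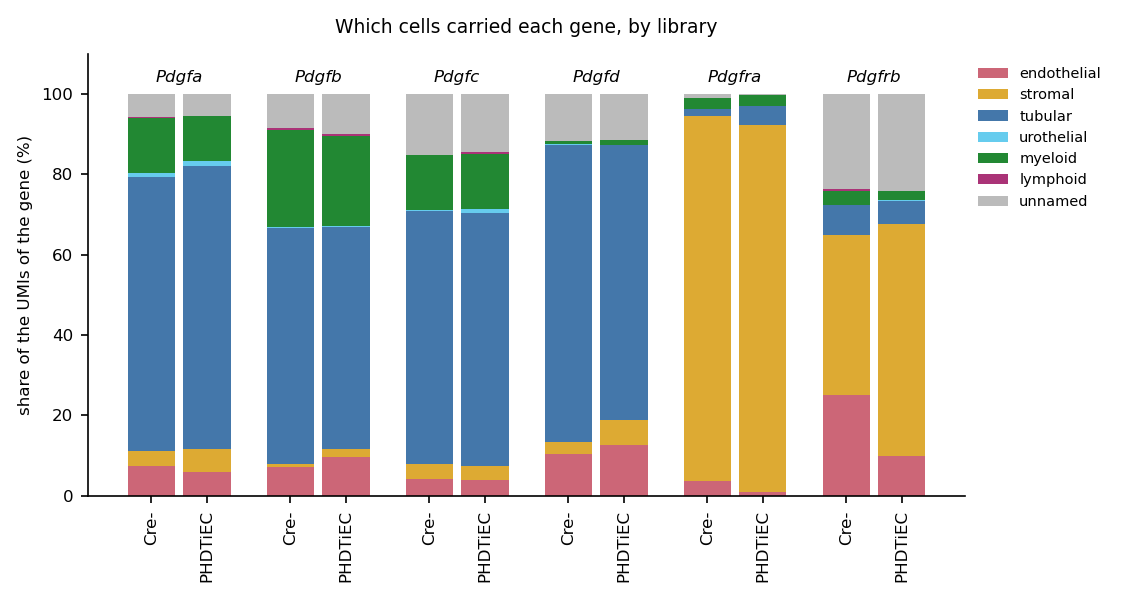
Share of each gene's UMIs (percent) that came from endothelial, stromal, tubular, myeloid, lymphoid, urothelial and unnamed classes, with the Cre- library and the library labelled PHDTiEC side by side. Tubular-like cells give most UMIs of the 4 ligands (55.4% to 74.0%), stromal cells 90.9% and 91.2% of Pdgfra, and the stromal share of Pdgfrb is 39.8% in Cre- and 57.7% in PHDTiEC. Tubular-like cells also hold most UMIs of all genes (71708247 of 118320351 in Cre- and 78168778 of 132583769 in PHDTiEC).

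The receptor Pdgfra was nearly confined to FIB-like cells, which gave 462 of 508 UMIs in Cre- and 887 of 979 UMIs in PHDTiEC. Its level there was 238 CPM (216–260, 163 cells) and 210.5 CPM (197–225, 304 cells), a log2 ratio of -0.18 (-0.34 to -0.01), and 0.10 when the mean over cells was taken. Summed over all cells, Pdgfra was higher in the library labelled PHDTiEC, with 4.29 and 7.38 CPM and a log2 ratio of 0.78 (0.63 to 0.94). FIB-like cells made up 1.91% of all cells in Cre- and 3.27% in PHDTiEC, so the sum over all cells was higher where the level within FIB-like cells was not. PER-like cells held 0 UMIs in Cre-, which allows up to 3.62 CPM (3 UMIs), and 6 UMIs in PHDTiEC, and mREC-like cells held 0 in both.

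Pdgfrb was carried by stromal and mural classes and by cluster 14, the cluster with glomerular epithelium markers, which gave 23.1% (Cre-) and 23.5% (PHDTiEC) of its UMIs. With both libraries summed, FIB-like cells led at 263 CPM (250–276), PER-like cells followed without overlap at 129 CPM (114–147), and cluster 14 (118 CPM) and cluster 21 (116 CPM) overlapped with them. In cREC-like cells it was at 47.3 CPM, and in the remaining classes at 7.76 CPM or less. In FIB-like cells the level was 245 CPM (223–268) in Cre- and 271 CPM (256–288) in PHDTiEC, a log2 ratio of 0.15 (-0.01 to 0.31) whose interval includes 0, and 0.43 as a mean over cells. Cluster 14 had 106 and 127 CPM, which is a log2 ratio of 0.27 (0.07 to 0.47).

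In mural cells Pdgfrb was lower in the library labelled PHDTiEC. PER-like cells had 162 CPM (136–192, 144 cells) and 103 CPM (84.2–125, 147 cells), a log2 ratio of -0.65 (-1.04 to -0.27) or 0.636-fold. Other mural genes were not lower with it: Rgs5, a regulator of G protein signaling in pericytes, was at 3798 and 3825 CPM, Myh11, the smooth muscle myosin heavy chain, at 2319 and 2885 CPM, and the whole pericyte list at 28960 and 28610 CPM, with no gene of it at 0. The share of PER-like cells with a Pdgfrb UMI was 46.5% and 44.2%, and at 2000 UMIs per cell, with 26 and 28 shallower cells left out, the intervals overlapped (20.1–37.0% and 14.1–29.4%). As a mean over cells the log2 ratio was -0.24. T-like cells gave 0.612% and 0.165% at the same depth. Marker lists of other cell types in PER-like cells differed between the libraries in both directions. The neutrophil list was at 863 and 14.7 CPM and the DCT list at 245 and 41.2 CPM. The injured PT list was at 383 and 977 CPM, the TAL list at 440 and 877 CPM, the thin limb or IM-CD list at 47.1 and 261 CPM and the CD list at 38.7 and 182.5 CPM, and the part of these markers in the result was not tested. Of 5 members with at least 50 UMIs in PER-like cells, 2 were more than 1.5-fold lower (Pdgfc and Pdgfrb), against 15.6% of genes in either direction.

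Cluster 21, in which mural and endothelial genes stood together, showed the same direction for Pdgfrb. It had 140 CPM (125–158, 88 cells) and 90.8 CPM (78.0–105, 97 cells), a log2 ratio of -0.63 (-0.91 to -0.36), with Rgs5 at 1536 and 1978 CPM and the pericyte list at 7659 and 10260 CPM. It was the 1 member of 5 past 1.5-fold there, against 10.3% of genes. The median depth of cluster 21 was 20726 UMIs. Whether its barcodes hold 1 cell with genes of both types or more than 1 cell cannot be told apart in these data.

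In cREC-like cells Pdgfrb rested on few cells. It was at 76.7 CPM (61.2–94.9) in 15 of 131 cells and at 21.6 CPM (14.2–31.4) in 13 of 214 cells, a log2 ratio of -1.83 (-2.51 to -1.19). The positive cells had a median of 32403 and 21544 UMIs, against 3754.5 and 3145 UMIs for the other cREC-like cells. All of them carried Pecam1, while 8 and 5 carried Rgs5, 9 and 2 carried Notch3, and 8 and 4 carried Pdgfra. Of the fibroblast markers, Col1a1 was carried by 0 and 0 of them and Dcn by 1 and 1. The pericyte list was at 139.7 and 85.4 CPM and the fibroblast list at 197 and 271 CPM in this class. Lists of tubular cells were lower along with Pdgfrb, the TAL list with 1400 and 252 CPM, the injured PT list with 917 and 296 CPM and the DCT list with 160.6 and 19.95 CPM, and the part of these markers in the result was not tested. When each cell was classed on its own by its markers, the log2 ratio was 0.26 (-0.93 to 1.62). Pdgfrb was the 1 member of 4 past 1.5-fold in cREC-like cells, against 15.0% of genes, and the 1 of 5 in all endothelial-like cells (78.1 and 37.1 CPM, log2 ratio -1.08, -1.32 to -0.83), against 8.08% of genes. In mREC-like cells, which gave 2.90% and 5.27% of all Pdgfb UMIs, Pdgfrb was at 5.72 and 2.76 CPM.

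The receptors overlapped in FIB-like cells and not in mural cells. Of 163 FIB-like cells in Cre-, 96 carried UMIs of both receptors, 18 of Pdgfra only, 27 of Pdgfrb only and 22 of neither. In PHDTiEC the 304 cells split into 222, 23, 42 and 17. In PER-like cells 67 of 144 and 63 of 147 cells carried Pdgfrb only, and 0 and 2 carried both. Cluster 14 and cluster 21 likewise carried mostly Pdgfrb alone, in 102 of 196 and 136 of 242 cells and in 73 of 88 and 75 of 97 cells. At 2000 UMIs per cell, with 10 and 14 shallower cells left out, 34.6% (27.1–42.7) and 38.3% (32.7–44.1) of FIB-like cells had a Pdgfra UMI and 39.2% (31.4–47.4) and 43.1% (37.3–49.0) a Pdgfrb UMI, and the intervals of the libraries overlapped. A cell without a UMI may still express the gene at these depths (median 10043 and 10413.5 UMIs in FIB-like cells).

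**Figure D4:**
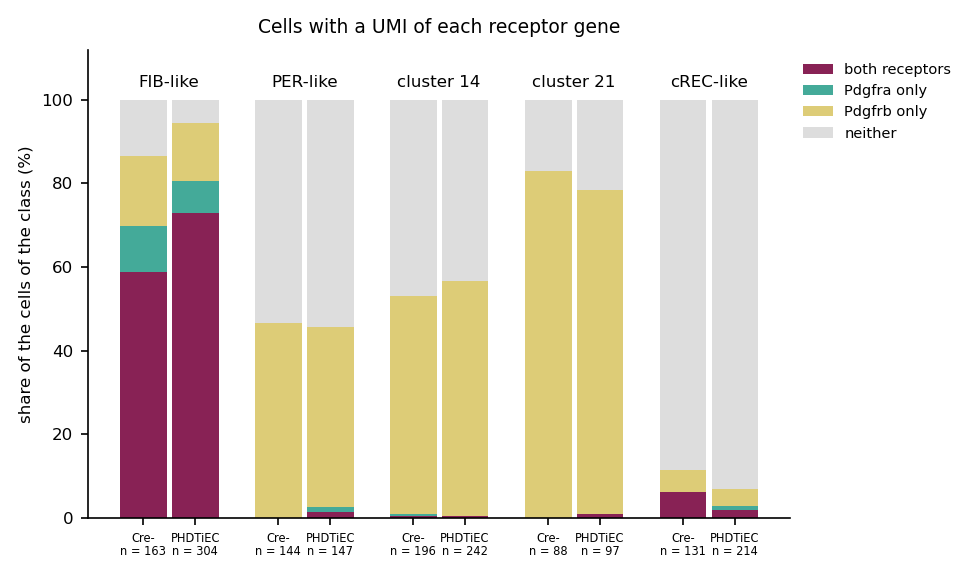
Share of cells (percent) with UMIs of both receptors, Pdgfra only, Pdgfrb only or neither in 5 classes, for the Cre- library and the library labelled PHDTiEC. Cells with both receptors are the largest part of FIB-like cells (96 of 163 and 222 of 304), while PER-like cells, cluster 14 and cluster 21 carry Pdgfrb almost without Pdgfra.

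Levels in barcodes too small to be cells give the free RNA of each suspension. In barcodes under 100 UMIs, Pdgfa was at 54.9 and 65.7 CPM, Pdgfb at 71.3 and 69.4 CPM, Pdgfc at 9.33 and 9.53 CPM, Pdgfd at 11.2 and 9.37 CPM, Pdgfra at 5.60 and 5.92 CPM, and Pdgfrb at 8.50 and 18.6 CPM. A cell class takes only a share of this pool. For each marker list of other cell types, the level in the class was divided by that in the pool, and the lowest value was taken as the share. Lists with higher values, such as tubular lists, do not enter it. The share was 11.3% and 8.52% in cREC-like cells and 0.0% to 5.01% in all endothelial-like, mREC-like, FIB-like, PER-like, all tubular-like, thin limb or IM-CD-like, TAL-like, DCT- and CD-like and both IC-like classes and in clusters 14 and 21. In both libraries it rested on the red cell list in mREC-like, FIB-like, PER-like, all tubular-like, thin limb or IM-CD-like and both IC-like classes. The red cell list also set it for DCT- and CD-like cells in Cre- and for TAL-like cells and cluster 21 in PHDTiEC. The share was not estimated for classes not named here. Free Pdgfrb was higher in the library labelled PHDTiEC (log2 ratio 1.13), and so was free Pdgfa (0.26, 0.03 to 0.49). For the other members the interval of this ratio included 0. Free RNA subtraction was among the alternatives of the processing, and the part of free RNA in the ratios of the classes was not tested otherwise.

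The genes whose level followed each member most closely over the 27 classes were found by Pearson's r of log2(CPM + 10), with both libraries summed. Those of the receptors were Scube1 (r = 0.991), Nkd2 (0.977), Hmcn1 (0.975), Gfpt2 (0.974) and Col10a1 (0.972) for Pdgfra, and Des (0.986), Nkd1 (0.973), Cd248 (0.969), Foxc2 (0.957) and Clip3 (0.956) for Pdgfrb. All of these were highest in FIB-like cells except Foxc2, which was highest in cluster 14. Des encodes the intermediate filament desmin, and Cd248 encodes endosialin, a surface protein of pericytes and fibroblasts. The ligands had looser neighbors: Lmna (0.920), Nenf (0.913), Dst (0.903), Dip2c (0.902) and Creld1 (0.898) for Pdgfa, and Sash1 (0.845), Rnf135 (0.818), Aph1a (0.814), Anxa5 (0.797) and Pld2 (0.796) for Pdgfb. For Pdgfc they were Pkia (0.840), Enpep (0.823), Unc5c (0.812), Lpp (0.801) and Ctdspl (0.797), and for Pdgfd Hoxa5 (0.903), Map1b (0.901), Irx3 (0.898), Dok4 (0.894) and Zbtb7c (0.894). Among the members themselves the highest value was 0.703 for Pdgfa with Pdgfd, the receptors stood at 0.635 with each other, and Pdgfb with Pdgfra was at -0.016. The classes share libraries and differ in depth, so these values describe a likeness of pattern only.

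A list of 36 genes that process PDGFs, bind them or act right after the receptors was read in the sending and receiving classes. It held 5 proteases that release or activate the ligands, 3 co-receptors and matrix proteins, 22 signaling genes and 6 phosphatases and ubiquitin ligases that restrain the receptors. In all endothelial-like cells 35 had at least 50 UMIs, 0 were more than 1.5-fold higher and 3 were lower, against 8.08% of all genes in either direction, and the median log2 ratio was 0.05 beside -0.01 over all genes. In FIB-like cells 34 could be counted, with 1 higher and 0 lower, against 11.2% of all genes, and a median of 0.12 beside 0.06. In PER-like cells 22 could be counted, with 3 higher and 0 lower, against 15.6% of all genes, and a median of 0.03 beside 0.10. The 3 of 22 in PER-like cells lay near the share of all genes. The signaling genes as a group thus lay close to the level of all genes in each class, with medians of 0.05 in endothelial-like, 0.08 in FIB-like and -0.07 in PER-like cells.

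Single genes of the list stood out from this. Plau, the urokinase-type plasminogen activator that can activate the D chain, was at 4.83 CPM (4 UMIs) and 50.03 CPM (51 UMIs) in PER-like cells, a log2 ratio of 3.37 (1.93 to 5.30). Several tubular marker lists were also higher in PER-like cells of the library labelled PHDTiEC, while the DCT and neutrophil lists were lower, as given above. The part of RNA of other cells in the Plau value was not tested. In endothelial-like cells Plau was at 7.34 and 10.4 CPM (0.50, -0.12 to 1.14). St14, encoding the membrane protease matriptase, had the lowest ratio in endothelial-like cells, with 18.4 and 10.9 CPM (-0.75, -1.24 to -0.27). Tubular marker lists were lower there too, the TAL list with 438.7 and 207.5 CPM, the injured PT list with 304.9 and 169.4 CPM and the DCT list with 47.3 and 24.1 CPM, and St14 was at 149 and 173 CPM in DCT- and CD-like cells. The part of tubular RNA in its endothelial value was not tested. Of the others at the ends of the endothelial order, the kinase Src, the 1 pathway gene under 50 UMIs there, had 3.26 and 4.68 CPM (0.52, -0.43 to 1.51), the phosphoinositide 3-kinase subunit Pik3r2 7.34 and 4.50 CPM (-0.71, -1.49 to 0.06), and the transcription factor Stat5a 9.79 and 6.23 CPM (-0.65, -1.32 to 0.00), and each of these intervals reaches 0.

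Proteins that hold PDGFs at the cell surface or in the matrix were abundant. Sparc, a matrix protein that binds the B chain, was at 1822 and 2410 CPM in endothelial-like cells (log2 ratio 0.40, 0.37 to 0.44), and the co-receptor Nrp1 was at 305 and 344 CPM (0.17, 0.07 to 0.27). Sparc in FIB-like cells was at 5163 and 5047 CPM (-0.03, -0.07 to 0.00), so the endothelial difference was not shared by the class with the highest receptor levels. Cbl, a ubiquitin ligase that sends activated receptors to degradation, was at 34.5 and 52.0 CPM in FIB-like cells (0.59, 0.19 to 1.01).

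**Figure D5:**
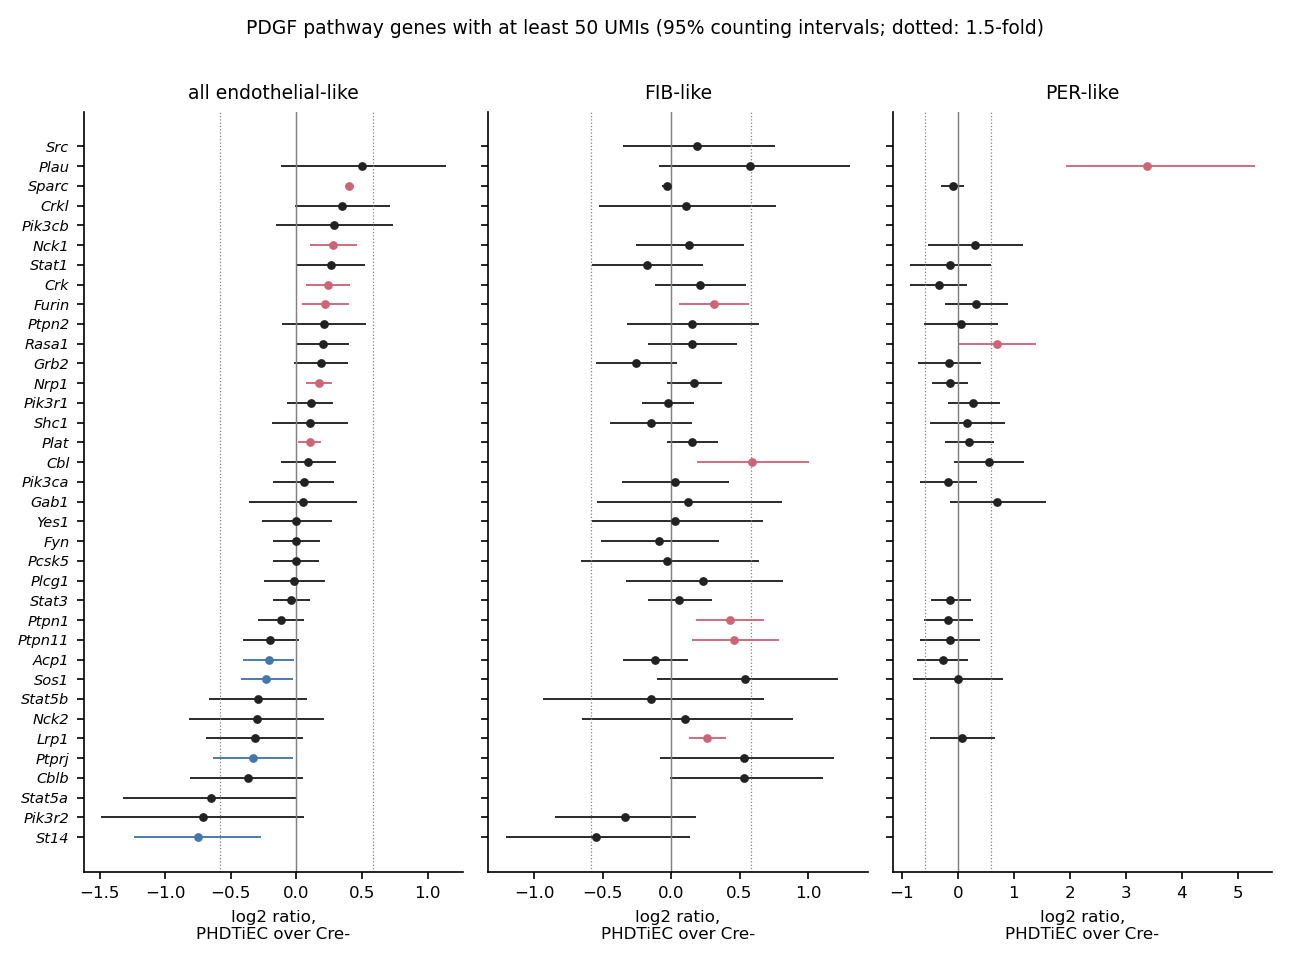
Log2 ratio of CPM, library labelled PHDTiEC over Cre-, for the pathway genes with at least 50 UMIs in endothelial-like, FIB-like and PER-like cells, with exact binomial 95% intervals; dotted lines mark 1.5-fold, red marks intervals above 0, blue intervals below 0 and black those that include 0. Plau lies past 1.5-fold in PER-like cells (3.37) and Cbl in FIB-like cells (0.59), and most signaling genes lie within the dotted lines.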

How the data were processed

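Single-cell suspensions of injured kidneys were profiled with 10x Genomics Chromium 3′ chemistry (v3.1). Per the labels, the authors aligned reads to mm10 with Cell Ranger (software version 4 in the matrix header), and they deposited unfiltered UMI counts per gene and barcode. Barcodes with 500 to 100000 UMIs, at least 200 genes and at most 50% mitochondrial UMIs were kept. Both libraries were merged and clustered in Seurat 5.3.0 (R 4.3.3) with 2000 variable genes. The cell limits, 20 principal components and resolution 0.8 came from the study's methods. Unlike there, the 6 members were left out of the variable genes, the minimum of log10 genes over log10 UMIs was tried only as an alternative, and the cluster led by Gm26917 (cluster 5) was kept as 1 of the 28 clusters. These were named from marker lists, so names and shares may differ from those of the study. UMIs were summed per class and library with Python 3.11.15, numpy 2.4.6 and scipy 1.17.1, and alternatives used edgeR 4.0.16 scaling. Scrublet in scanpy 1.11.5 called 0 doublets of 8548 and 9309 cells, so doublets were not removed. The interval code was tested on simulated data. Named genes were the 6 members, the 5 most similar genes of each (of genes with at least 200 UMIs), and 36 pathway genes; 1 other gene of the planned pathway list is not reported here. The members and lists were chosen with earlier results of these data known. With 1 library per genotype, fold limits replaced tests.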

Additional observations from a re-analysis of the deposited data

Results flagged for a closer look

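Pdgfa had a log2 ratio of PHDTiEC over Cre- of 0.86 (0.38 to 1.35) in cluster 5 cells and of -0.42 (-0.76 to -0.08) in cycling macrophage-like cells. Of 19 classes with at least 50 UMIs, 8 had intervals above 0 and 1 below. Cluster 5 had 41.8 and 75.7 CPM from 58 and 103 UMIs and a median depth of 1110 UMIs. It is led by Gm26917 and also by Gm42418, and the study left out a cluster rich in these RNAs.

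Pdgfb had a log2 ratio of 1.27 (0.94 to 1.61) in cluster 24, which is led by cell cycle genes, and of -0.71 (-0.84 to -0.59) in DCT- and CD-like cells. Of 20 classes, 7 had intervals above 0 and 4 below. Cluster 24 rested on 47 and 28 cells with 61.1 and 147 CPM, and a single cell gave 20.6% of its UMIs in the library labelled PHDTiEC. Its median depth was 43250 UMIs, and 32 of its 75 cells (42.7%) were among the highest 8% of scrublet scores. Whether its barcodes hold 1 cell or more than 1 was not tested.

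Pdgfrb had a log2 ratio of 0.27 (0.07 to 0.47) in cluster 14 and of -1.83 (-2.51 to -1.19) in cREC-like cells, with 1 class of 7 above 0 and 3 below. For all 3 genes the classes were singled out by opposite directions, and the difference between them was not tested, since each genotype has 1 library.

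In barcodes under 500 UMIs, which no comparison of cell classes used, Pdgfa was at 50.5 and 64.5 CPM (log2 ratio 0.35, 0.18 to 0.52) and Pdgfrb at 8.93 and 16.4 CPM (0.88, 0.50 to 1.26), so both were higher in these barcodes of the library labelled PHDTiEC. Pdgfb was lower in them, at 73.6 and 61.7 CPM (-0.25, -0.41 to -0.10), but its ratio was -0.04 (-0.25 to 0.17) under 100 UMIs. The limit of 500 UMIs may also leave out cells with little RNA.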

How the results depend on the processing

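The 9 main ratios gave 128 values under other filters on cells, clusterings, scalings, free RNA subtraction and left-out cells, of which 122 moved by less than the counting interval of the reported value, and 18 ratios in other classes gave 247 values, of which 231 did. Taken as a mean over cells of counts per 10000, the log2 ratio in FIB-like cells turned from -0.18 to 0.10 for Pdgfra and came to 0.43 for Pdgfrb, and Pdgfb in all endothelial-like cells came to 0.46. Pdgfb in all endothelial-like cells was 0.50 without cluster 21, an alternative chosen after seeing the data. Pdgfa in all tubular-like cells was 0.51 with each cell classed by its markers and 0.39 without mitochondrial, ribosomal protein and 2 named genes (Gm42418 and Gm26917) in the CPM. Pdgfrb in cREC-like cells turned from -1.83 to 0.26 with each cell classed by its markers. The cause was not tested. The ratios in the classes that led with both libraries summed ranged from -0.11 to 0.17 (Pdgfa), 0.42 to 0.52 (Pdgfb), -0.32 to 0.03 (Pdgfc) and -0.58 to 0.46 (Pdgfd). Pdgfb in FIB-like cells ranged from 0.24 to 1.60 and Pdgfa in IC-like cells from 0.61 to 1.64. Removal of called doublets gave no value because none were called, and removal of the highest 8% of scores (684 and 745 cells) was added in its place, also after seeing the data. Cells classed by markers gave no value for IC-like cells with CD markers and cluster 21, and resolution 0.4 gave none for IC-like and cREC-like cells. No paired analysis was possible because each genotype has 1 library. In PER-like cells Pdgfc, Pdgfd and Pdgfra rested on 60, 50 and 6 UMIs over both libraries.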

Other observations

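Of the 3 co-receptors and matrix proteins of the pathway list, 2 lay past 1.5-fold in DCT- and CD-like cells, where Pdgfa was higher and Pdgfb lower in the library labelled PHDTiEC. Sparc, which binds the B chain, was at 40.5 CPM (37.3–43.8) and 71.6 CPM (67.6–75.7), a log2 ratio of 0.82 (0.68 to 0.97). Lrp1, an endocytic receptor that associates with PDGFRβ, was at 4.23 CPM (64 UMIs) and 7.12 CPM (120 UMIs), a log2 ratio of 0.75 (0.30 to 1.21). Nrp1 was at 54.5 and 56.6 CPM (0.06, -0.08 to 0.19). Sparc and Lrp1 were also the only 2 of all 36 pathway genes past 1.5-fold in this class, a smaller share than the 7.15% of all genes, and the median of the 36 was 0.15 beside 0.08 over all genes. The class was picked after its values were seen.

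Monocyte-like cells held 17 Pdgfrb UMIs in 17 cells of the Cre- library and 1 UMI in the library labelled PHDTiEC, with 240 and 162 cells.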
